A study of Mus musculus with 32 samples.

Results

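Expression of 10 imprinted genes that act on growth was followed in gastrocnemius (GAS) muscle, the large muscle of the calf, after its nerve supply was cut. The 10 members were chosen by symbol from the 33397 genes of the table, and the rule uses no measured value, although the list was proposed with earlier results of these data known. They are the noncoding RNAs H19, Meg3, Rian and Mirg and the coding genes Dlk1, Cdkn1c, Peg3, Mest, Grb10 and Plagl1. RNA was sequenced from 32 GAS muscles of C57BL/6 mice (C57BL/6J in the methods), with 4 samples at each of 0, 1, 3, 5, 7, 14, 21 and 28 d. The mice were males aged 6 to 8 weeks, operated on the left side, where a short piece of the nerve to the calf was taken out. The labels give sciatic nerve transection as the treatment of every time point, 0 d included, whereas the methods describe sham-operated mice whose nerve was left whole. Whether the 0 d samples are sham muscle is not settled by the labels. The 4 columns named C were taken as the 0 d group because it was the only group left without columns. No column is tied to an individual animal, so p-values measure the spread between these samples.

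An imprinted gene is read mainly from the copy inherited from one parent, and the silent copy is usually marked by DNA methylation laid down in the egg or the sperm. Many imprinted genes act on fetal growth, with paternally expressed members often promoting it and maternally expressed members often restraining it. In skeletal muscle H19 is known as an abundant noncoding RNA of developing and regenerating muscle. Parental alleles were not distinguished in these data, so every value is the sum of both copies.

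The noncoding members are hosts of microRNAs, and so is Mest. RefSeq (GRCm38.p6) places 2 mature microRNAs within H19, 2 within Mest, 3 within Meg3, 6 within Rian and 26 within Mirg. The pairs within H19 and Mest are shown because these hosts were called higher after denervation. H19 was called from 3 d on, but Mest only at 28 d among the single time points, a call that depended on the scaling. Capitals mark the seed, bases 2 to 8, which guides a microRNA to its targets. The H19 pair lies at chr7:142577112-142577133 and chr7:142577078-142577099 on the minus strand, and the Mest pair at chr6:30741314-30741336 and chr6:30741354-30741375 on the plus strand.
mmu-miR-675-5p: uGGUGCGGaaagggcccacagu
mmu-miR-675-3p: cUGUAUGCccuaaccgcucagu
mmu-miR-335-5p: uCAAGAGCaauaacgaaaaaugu
mmu-miR-335-3p: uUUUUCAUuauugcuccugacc
These 4 seeds differ from each other, and miR-675 is cut from an exon of H19 whereas the miR-335 gene shares 0 exon bases with Mest. The mature microRNAs were not measured in this RNA-seq.

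Start windows of 300 bases (250 before and 50 after the first base) were in the RefSeq table for 8 of the 10 members. The window of Peg3 and 1 of the 2 windows of Grb10 are shown because both genes rose and these windows carry letters found in few others. The Peg3 window (chr7:6730370-6730669, minus strand) holds the letters GGGGCCCC, the core of the site known for the protein of Plagl1, itself a member. The match is in capitals and starts 201 bases before the start site.
Peg3: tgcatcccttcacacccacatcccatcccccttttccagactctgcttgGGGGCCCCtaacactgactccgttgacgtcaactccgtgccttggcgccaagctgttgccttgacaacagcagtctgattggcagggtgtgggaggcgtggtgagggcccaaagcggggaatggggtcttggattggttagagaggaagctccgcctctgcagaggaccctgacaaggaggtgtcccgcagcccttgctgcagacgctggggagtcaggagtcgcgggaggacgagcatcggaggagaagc
On either strand, 1.08% of the 32851 windows hold these letters, and no other member's window does. The Grb10 window shown (chr11:12037371-12037670, minus strand) holds 45 CG pairs, the letters that DNA methylation acts on, and they are in capitals.
Grb10: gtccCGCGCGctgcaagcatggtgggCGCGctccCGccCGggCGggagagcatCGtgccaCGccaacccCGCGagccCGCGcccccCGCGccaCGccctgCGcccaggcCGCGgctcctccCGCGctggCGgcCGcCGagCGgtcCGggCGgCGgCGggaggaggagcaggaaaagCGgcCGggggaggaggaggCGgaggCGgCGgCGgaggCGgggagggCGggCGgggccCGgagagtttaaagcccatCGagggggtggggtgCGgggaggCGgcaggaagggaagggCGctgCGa
Only 1.93% of the windows hold as many CG pairs, against a median of 7 per window. The other Grb10 window (chr11:12027922-12028221, minus strand) holds 9, and 45.8% of the windows hold as many. These matches describe the letters alone, and neither methylation nor protein binding was measured.

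Values are FPKM, the fragments of a gene scaled to its exon length and to the total fragments of the sample. Recovered depth ranged from 14199902 to 17561584 fragments per sample. Differences were taken after adding 1 to the FPKM and going to log2, so those of weakly expressed genes come out too small, and were tested with limma over 22071 genes in 1 fit of all samples. To be called, a gene needed an adjusted p under 0.05 (Benjamini-Hochberg) and a change of at least 1.5-fold, which is 0.585 on the log2 scale. All comparisons with 0 d share the same 4 samples. Among 11943 genes averaging 1 FPKM or more, the median difference from 0 d was itself 0.12 at 1 d and 0.204 to 0.318 at later time points. Median-ratio scaling, which sets this shift near 0, lowered the share of called genes that were higher from 68.7% to 79.5% over the 7 time points to 44.8% to 49.6%. Differences after this scaling are therefore given beside the deposited ones for H19, Peg3, Grb10, Mest, Cdkn1c and Plagl1, though not at every time point. For Meg3, Rian, Mirg and Dlk1, which were not called against 0 d after this scaling either, only differences from the deposited FPKM are given. The 8 muscle fibre markers summed to 23410 FPKM or more in every sample, while 4 retina markers, looked at because the labels' extraction text speaks of retina, summed to at most 0.247.

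Peg3 was called higher at all 7 time points and H19 at all but 1 d, Grb10 was called higher at 3 d and from 14 d, Mest was called higher at 28 d, and Cdkn1c was called lower from 3 to 7 d. At 1 d, 1 of the 10 members was called, against 8.84% of all genes tested. At 3 d the count was 4 (19.3% of all genes), at 5 d 3 (18.8%) and at 7 d 3 (19.5%). After 2 weeks it was 3 (18.5%), after 3 weeks 3 (15.7%), and after 4 weeks 4 (18.3%). With the 12 samples of 14, 21 and 28 d joined in 1 contrast, 4 members were called, all higher, against 17.2% of all genes called and 13.3% called higher. All 10 members passed the filter on low values, although Mirg reached an FPKM of 0.1 in only 11 samples and Dlk1 in 10. With only 10 members, shares of this size say little about the list as a whole, and each member is described on its own.

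**Figure D1:**
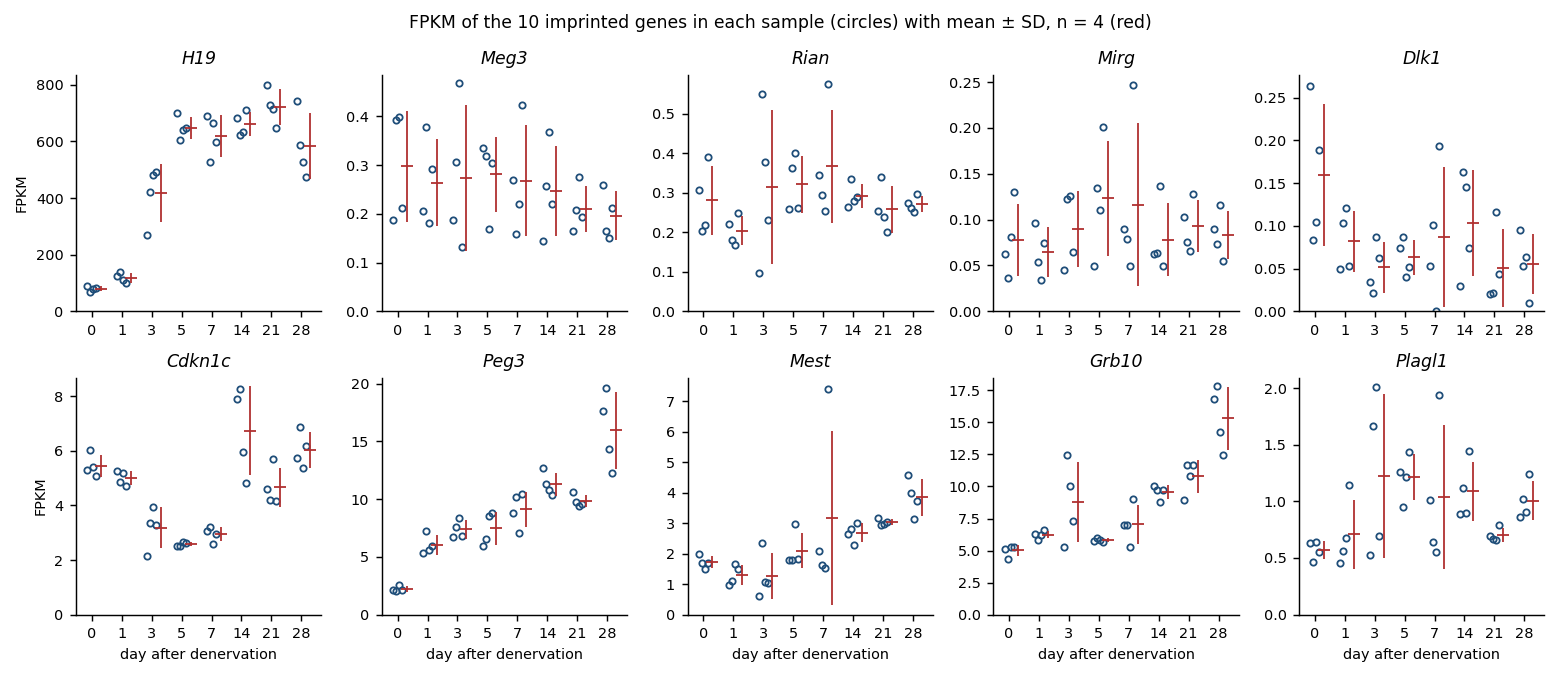
FPKM of each member in each sample (circles; y axis from 0) by day after denervation (x axis), with mean ± SD of the 4 samples in red. H19 climbs from 79.7 to 721.8 FPKM between its lowest and highest group means, Cdkn1c dips at 3 to 7 d, and Meg3, Rian, Mirg and Dlk1 stay below 0.6 FPKM in every sample.

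H19, a maternally expressed noncoding RNA (chr7:142575529-142578143, minus strand), was the most abundant member in every group. Its FPKM at 0 d was 89.2, 69.7, 78.2 and 81.8, and at 1 d it was 123, 139, 112 and 100. The samples of 3 d held 270, 422, 481 and 493. By 5 d the values had reached 699, 606, 641 and 646. All denervated samples lay above all 0 d samples, and each sample from 5 d on lay above the first 3 d sample. Of all genes tested, between 28.5% (1 d) and 45.7% (28 d) did not overlap with 0 d at a given time point. The 7 d samples held 690, 526, 666 and 598 and those of 14 d 683, 621, 634 and 709. At 21 d the values were 800, 727, 713 and 647, and the 28 d samples held 744, 589, 526 and 476, so these groups overlapped with each other. Group means ran from 79.7 ± 8.10 (SD, n = 4) at 0 d to 721.8 ± 62.5 at 21 d, a ratio of 9.06.

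The rise of H19 had 2 steps and then a plateau. At 1 d the difference was 0.56 ± 0.15 (SE), with an adjusted p of 0.00333 by limma, just under the 1.5-fold threshold. It was 2.34 at 3 d and 3.01 at 5 d, and between 2.84 and 3.16 from 7 to 28 d, with adjusted p of 9.07e-14 or less. After median-ratio scaling the differences from 3 d on were 2.11 to 2.86, and H19 was called at each, but not at 1 d. Between neighbouring time points, H19 was the member called from 1 to 3 d (1.78, adjusted p = 8.19e-11), where 10.6% of all genes were called. From 3 to 5 d it rose by a further 0.67 (adjusted p = 0.00085) and was again the only member called, against 5.76% of all genes. This second step fell to 0.52 after median-ratio scaling and to 0.48 without the first 3 d sample, both under the threshold. No later step of H19 was called. The exact permutation test of the 12 late samples against 0 d gave p = 0.00055, the smallest it can give.

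Which cells carried the rise cannot be read from bulk RNA, where fewer cells of a type and less RNA per cell cannot be told apart. The summed satellite cell and myoblast markers were also higher in the first days, going from 14.4 to 19.6 FPKM at 0 d to 53.1 to 77.4 at 1 d and 226 to 313 at 3 d. Their sum was lower at 5 d (158 to 191 FPKM), where H19 was higher than at 3 d, and stood at 162 to 211 from 7 to 21 d and 216 to 229 at 28 d. The lower sum at 5 d came from Myog alone, which averaged 215 FPKM at 3 d and 94.2 at 5 d. Means of Myod1 (60.3 and 65.2), Cdh15 (10.3 and 11.8), Myf5 (1.41 and 2.18) and Pax7 (0.444 and 0.589) were higher at 5 d, with overlapping samples. From 3 d on, 3 of the 5 markers were called higher at each time point. Of these, Myod1 and Myog were higher than at 0 d at every time point, while Pax7, the defining marker of satellite cells, was not called at any. Pax7 averaged 0.606 FPKM at 0 d and 0.953 at 28 d. Each 28 d sample was above the 0 d range, but the difference on the log2(FPKM + 1) scale, which understates genes this low, was 0.28. Macrophage markers rose from a sum of 118 to 171 to 376 to 453 at 28 d, with 5 of 5 called. The sum of 4 immature fibre markers went from 31.5 to 65.0 at 0 d to 121 to 174 at 28 d, with 3 called higher from 5 d on and 1 called lower from 3 to 21 d. Fibroblast markers summed to 221 to 294 at 0 d, 414 to 534 at 5 d (4 of 6 called higher) and 318 to 450 at 28 d (2 of 6). The muscle fibre sum fell from 42320 to 45480 at 0 d to 23410 to 26940 at 28 d, with 6 of 8 markers called lower and 1, the fast myosin gene Myh1, called higher. Schwann cell markers summed to 76.3 to 169 at 0 d and 9.81 to 24.5 at 28 d, with 3 of 5 called lower and 1 called higher. The endothelial sum was 68.5 to 79.0 at 0 d and 47.2 to 55.9 at 28 d, with 1 of 4 called lower. The part of any of these cells in the members' differences was not tested.

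The genes around H19 did not share its course. Igf2, the paternally expressed growth factor of the same domain, had mean FPKM of 0.0942 ± 0.0528 (SD, n = 4) at 0 d and 0.0506 to 0.171 afterwards and was not called at any time point. At this level even a complete loss could not reach 1.5-fold on the log2(FPKM + 1) scale. Nctc1, a muscle-expressed noncoding RNA next to H19, stood at 30.2 ± 2.29 FPKM at 0 d. Its 1 d samples (40.1 ± 2.80) were all above the 0 d range, like those of H19, though it was not called there. It then went the other way, to 8.27 ± 0.816 at 5 d and 16.2 ± 1.14 at 28 d. Its difference was -1.75 at 5 d (adjusted p = 2.9e-14) and -0.86 at 28 d, and it was called lower in all comparisons with 0 d except that of 1 d, also after median-ratio scaling. Mrpl23, a mitochondrial ribosomal protein gene, stayed under 1.5-fold throughout, and so did Lsp1.

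**Figure D2:**
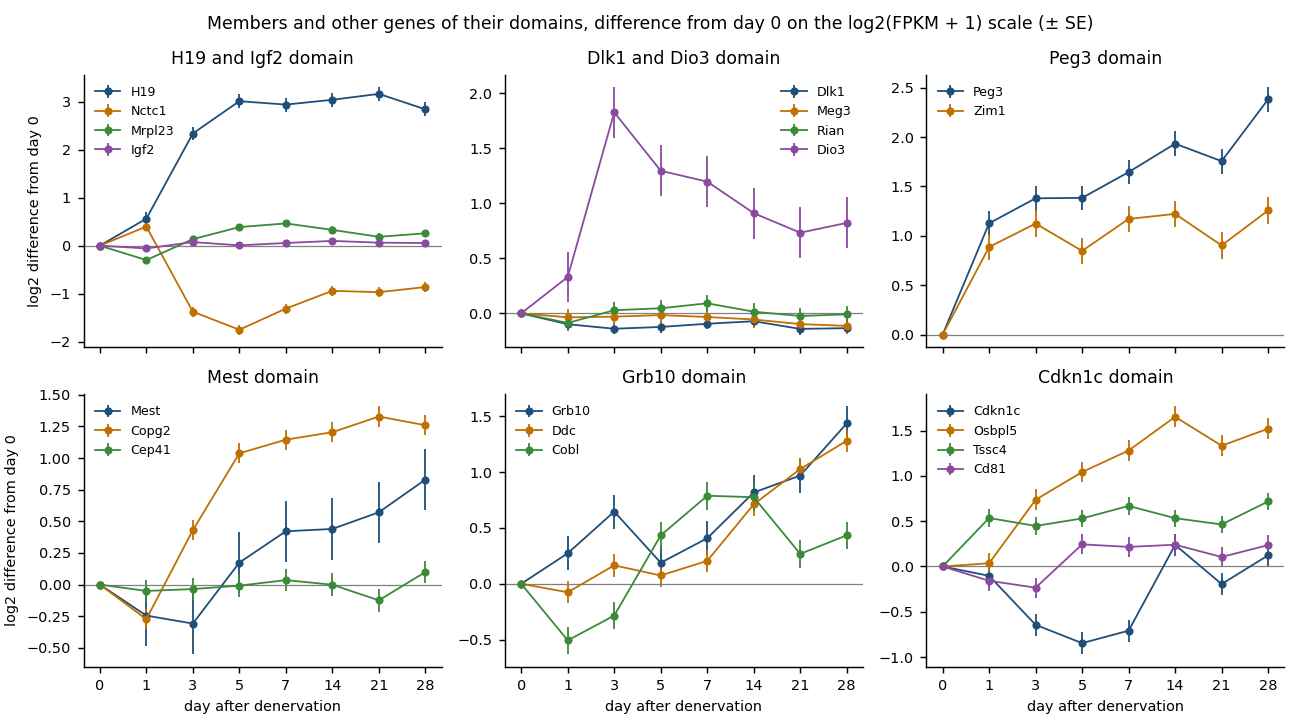
Difference from 0 d on the log2(FPKM + 1) scale (y axis; error bars, SE of the fit) by day (x axis) for members and other genes of their chromosomal domains. H19 and Nctc1 part after 1 d, Peg3 and Zim1 rise together, and Dio3 rises at 3 d while Dlk1, Meg3 and Rian lie within 0.15 of 0.

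Peg3, a paternally expressed zinc finger gene (chr7:6703892-6730431, minus strand), was the only member called at the first day. Its FPKM was 2.16, 2.01, 2.53 and 2.15 at 0 d and 5.34, 7.23, 5.59 and 5.98 at 1 d. At 14 d it was 12.7, 11.3, 10.8 and 10.3, and at 28 d 17.6, 19.6, 14.4 and 12.2. No denervated sample overlapped with 0 d, beside 28.5% to 45.7% of all genes tested at a given time point. In between, the values lay between 5.97 and 10.4 from 3 to 7 d, and between 9.39 and 10.6 at 21 d.

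At 1 d the difference of Peg3 was 1.13 ± 0.13 (SE, adjusted p = 3.63e-08). It was 1.38 at both 3 and 5 d and 1.64 at 7 d, then 1.93, 1.76 and 2.38 at the last 3 time points (adjusted p = 3.64e-15 at 28 d). After median-ratio scaling they were 1.01 to 2.09, and each was called. In mean FPKM, Peg3 stood at 2.73 times its 0 d level at 1 d and 7.21 times at 28 d. The last step, from 21 to 28 d, was 0.63 (adjusted p = 0.011), and Peg3 was the only member among the 0.199% of genes called there. That call was lost without the first 28 d sample (0.57) or the second (0.52), and after median-ratio scaling (0.55).

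Zim1, a neighbour of Peg3 in the same imprinted domain, rose too. Its mean was 0.915 ± 0.196 FPKM (SD, n = 4) at 0 d, 2.53 ± 0.0940 at 1 d and 3.67 ± 1.15 at 28 d, and it was called higher at all 7 time points under both scalings. Siah1a, a ubiquitin ligase whose protein is known as a partner of the Peg3 protein, rose at 1 d by 0.74 and at 3 d by 1.15, and was under 1.5-fold on the log2(FPKM + 1) scale afterwards (0.54 at 5 d, where the ratio of mean FPKM was 1.53), with the 1 d value of 0.58 after median-ratio scaling also just under it.

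Grb10, an adaptor protein that restrains insulin and insulin-like growth factor signalling (chr11:11930508-12038683, minus strand), rose in the late samples. Its FPKM was 5.11, 4.33, 5.31 and 5.27 at 0 d. At 14 d it was 10.1, 9.71, 8.81 and 9.69, at 21 d 8.96, 11.7, 10.8 and 11.7, and at 28 d 16.8, 17.8, 14.2 and 12.4. All 12 late samples lay above all 0 d samples, and 34.1% of all genes tested were likewise separated from 0 d. The differences were 0.82 at 14 d, 0.97 at 21 d and 1.44 ± 0.15 (SE) at 28 d, with adjusted p of 5.34e-05 or less. After median-ratio scaling Grb10 was called at 21 d (0.71) and 28 d (1.10) but not at 14 d (0.47).

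The early values of Grb10 were uneven. At 3 d they were 5.29, 12.4, 10.01 and 7.30, so the first sample lay within the 0 d range and the second held the highest value before 28 d. The difference at 3 d was 0.65 ± 0.15 (SE, adjusted p = 0.000842), and it dropped under the threshold without the second sample (0.47), without the next (0.57) and after median-ratio scaling (0.45). By 5 d the values were 5.77, 6.00, 5.85 and 5.68, nearer to 0 d but all above its samples. The 1 d values (5.85 to 6.58) were likewise all above 0 d. Of all genes tested, 28.5% at 1 d and 44.8% at 5 d did not overlap with 0 d. At 7 d Grb10 ran from 5.255 to 8.99, and it was not called at 1, 5 or 7 d. The second and the third 3 d samples also had the highest macrophage marker sums of their group, 858 and 795 FPKM against 258 and 428. The first 3 d sample had the lowest fibroblast marker sum, 84.0 FPKM against 283 to 461, and stood apart from its group on the first principal component (-18.5 against 1.15 to 6.40). Their part in the uneven values was not tested.

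Ddc and Cobl lie near Grb10. Ddc, which encodes the decarboxylase of dopamine and serotonin synthesis and lies in the same domain, was at 0.0838 ± 0.0130 FPKM at 0 d and 1.65 ± 0.378 at 28 d, and was called higher at 14, 21 and 28 d under both scalings. Cobl, an actin regulator, was called higher at 7 d (0.79) and 14 d (0.78), neither of which held after median-ratio scaling.

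**Figure D3:**
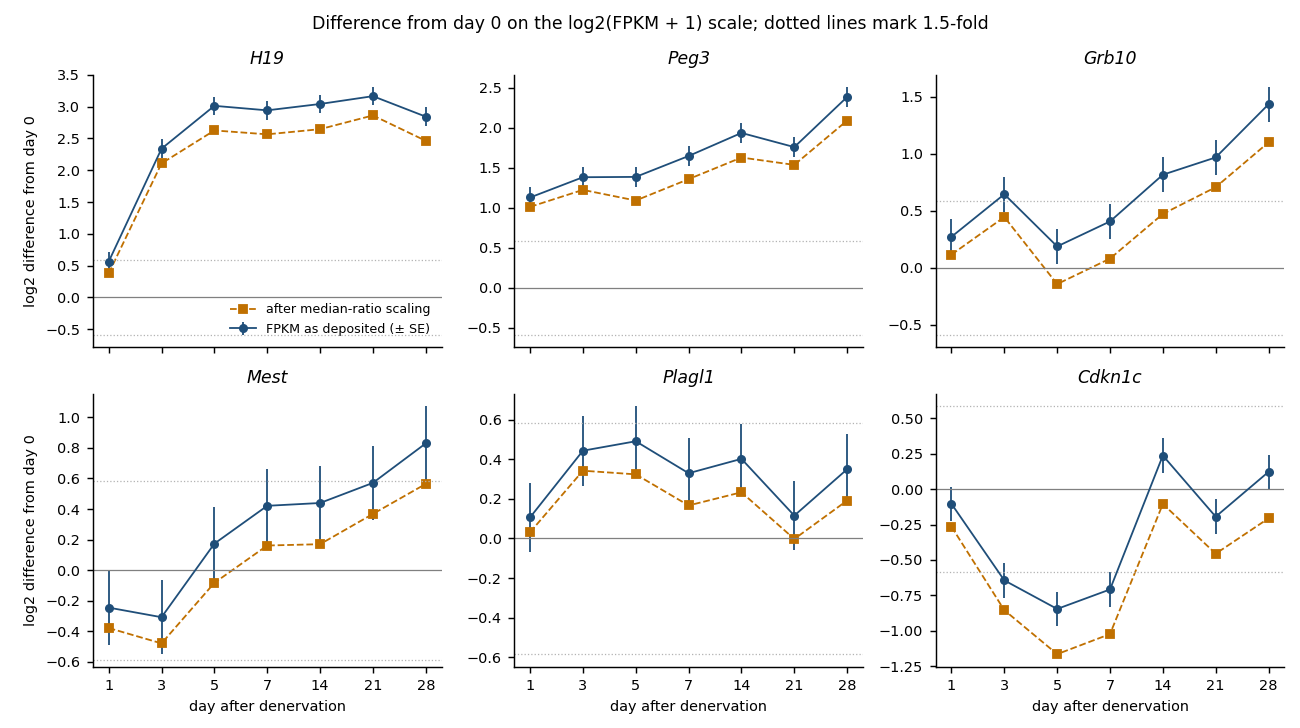
Difference from 0 d on the log2(FPKM + 1) scale for 6 members (y axis) by day (x axis), from the deposited FPKM (blue circles; error bars, SE) and after median-ratio scaling (orange squares), with 1.5-fold marked by dotted lines. H19 and Peg3 stay above the upper line under both from 3 d on, and Cdkn1c is below the lower line under both at 3, 5 and 7 d.

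Mest, a paternally expressed gene of the hydrolase fold family (chr6:30723547-30748465, plus strand), had FPKM of 1.99, 1.68, 1.495 and 1.71 at 0 d. The 14 d values were 2.64, 2.82, 2.29 and 3.00. At 21 d they were 3.17, 2.95, 2.97 and 3.03, and at 28 d 4.57, 3.98, 3.13 and 3.72. No late sample overlapped with 0 d, which held for 34.1% of all genes tested. Mest was called at 28 d (0.83 ± 0.24 SE, adjusted p = 0.00544) and over the 3 late time points together (0.61, adjusted p = 0.0103), with an exact permutation p of 0.00055 for the latter. After median-ratio scaling these differences were 0.56 and 0.37, both under the threshold, and the late call was also lost without the 0 d sample of 1.495 FPKM (0.57).

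Single samples stood out for Mest. At 3 d its FPKM was 0.612, 2.36, 1.07 and 1.05, and at 5 d 1.79, 1.80, 2.97 and 1.82. The fourth 7 d sample held 7.42 FPKM from 455 fragments, against 2.09, 1.64 and 1.54 in the other 3. That library also had the highest 7 d values of Plagl1 (1.94), Rian (0.576), Meg3 (0.423), Mirg (0.247), Peg3 (10.4), Grb10 (8.99) and Dlk1 (0.193). Its macrophage marker sum was 1020 FPKM and its fibroblast sum 658, against 320 to 716 and 282 to 506 in the other 7 d samples. The part of these cells in its values was not tested. Without this library 3 members were still called at 7 d.

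Copg2, a coat protein gene whose exons overlap those of Mest by 912 bases on the opposite strand, rose from 4.55 ± 0.416 FPKM (SD, n = 4) at 0 d to 12.9 ± 0.625 at 21 d. It was called higher from 5 d on under both scalings. The strand setting of the counting is not given in the sources used here, so reads from the shared bases cannot be assigned to either gene. The microRNA gene within Mest, Mir335, was above 0 in 9 samples and reached at most 3.04 FPKM, a figure for a very short gene that says little of the mature microRNA.

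Plagl1, a zinc finger regulator of other imprinted genes (chr10:13060504-13131694, plus strand), was expressed at about 1 FPKM. Its values were 0.631, 0.463, 0.637 and 0.556 at 0 d, 1.26, 0.948, 1.21 and 1.44 at 5 d, and 0.861, 1.02, 0.905 and 1.24 at 28 d. All samples of 5, 14, 21 and 28 d lay above all 0 d samples, and 42.9% to 45.7% of all genes tested did not overlap with 0 d at these time points. At 3 d the values were 0.526, 1.67, 2.01 and 0.697, with the same 2 samples high as for Grb10. The largest difference was 0.49 ± 0.18 (SE) at 5 d (adjusted p = 0.0232), under 1.5-fold on this scale although the mean FPKM ratio was 2.12. With a pseudocount of 0.1 Plagl1 was called at 3 d (0.81), 5 d (0.96) and 14 d (0.81). After median-ratio scaling its differences ran from near 0 at 21 d to 0.34 at 3 d.

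Cdkn1c, the maternally expressed inhibitor of cyclin-dependent kinases also known as p57 (chr7:143458339-143461050, minus strand), was called lower from 3 to 7 d. Its FPKM was 5.28, 6.05, 5.40 and 5.10 at 0 d and 5.25, 4.84, 5.204 and 4.72 at 1 d. It was 2.15, 3.34, 3.95 and 3.28 at 3 d, 2.51, 2.52, 2.67 and 2.64 at 5 d, and 3.07, 3.20, 2.57 and 2.97 at 7 d. All 12 samples of 3 to 7 d lay below all 0 d samples, and 35.3%, 44.8% and 40.9% of all genes tested did not overlap with 0 d at these time points. The differences were -0.64 at 3 d, -0.85 ± 0.12 (SE) at 5 d and -0.71 at 7 d, with adjusted p of 6.45e-05 or less, and -0.85, -1.17 and -1.02 after median-ratio scaling. The 3 d call was lost without the first 3 d sample (-0.51). At 3, 5 and 7 d the mean stood at 0.583, 0.474 and 0.541 of the 0 d level.

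The fall of Cdkn1c ended by 14 d. There the values were 7.90, 8.27, 5.96 and 4.81, and the step from 7 to 14 d was 0.95 ± 0.12 (SE, adjusted p = 1.82e-05). Cdkn1c was the only member called in this step, in which 0.634% of all genes were called, and it was called after median-ratio scaling as well (0.92). At 21 d the values were 4.62, 4.20, 5.69 and 4.15, and at 28 d 5.72, 6.89, 5.37 and 6.18. Late differences from 0 d were 0.24, -0.19 and 0.12, none called, and after median-ratio scaling they were -0.10, -0.46 and -0.21. From 5 to 7 d and from 14 to 21 d no member was called, against 0.657% and 0.453% of all genes. Between 67 and 293 fragments stood behind each Cdkn1c value, and an antisense gene that shares 625 exon bases with it, Gm44732, was above 0 in only 4 samples and at most at 0.31 FPKM.

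Another inhibitor of the same kinases took a different course. Cdkn1a, known as p21, rose from 3.20 ± 0.319 FPKM (SD, n = 4) at 0 d to 35.1 ± 2.04 at 1 d and 126 ± 32.8 at 14 d, with differences of 3.10 and 4.88, and was called at every time point under both scalings. Of the 2 genes in the imprinted list that lie near Cdkn1c and were called, Osbpl5, a lipid-binding protein gene, rose from 4.75 ± 0.352 FPKM to 17.1 ± 1.03 at 14 d and was called from 3 d on, though not at 3 d after median-ratio scaling (0.54). Tssc4 was called at 7 d (0.67) and 28 d (0.72), and at neither after median-ratio scaling (0.36 and 0.40). Kcnq1ot1, the noncoding RNA known to silence this domain on the paternal copy, averaged 0.0583 FPKM at 0 d and 0.120 at 14 d, its highest group, and was not called. All its samples from 5 d on lay above 0 d, but at this level even the ratio of 2.06 at 14 d stays far under 1.5-fold on the log2(FPKM + 1) scale.

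Meg3, Rian and Mirg, maternally expressed noncoding RNAs that follow each other on the plus strand of chromosome 12, were low throughout and not called in any comparison. Mean FPKM of Meg3 ran from 0.197 at 28 d to 0.298 at 0 d, that of Rian from 0.204 at 1 d to 0.367 at 7 d, and that of Mirg from 0.0647 at 1 d to 0.123 at 5 d. Meg3 was at 0.187, 0.393, 0.398 and 0.212 at 0 d and at 0.260, 0.165, 0.150 and 0.211 at 28 d, with overlapping groups. From the deposited FPKM alone, without median-ratio scaling, differences from 0 d lay between -0.11 and -0.02 for Meg3, between -0.09 and 0.09 for Rian, and between -0.02 and 0.06 for Mirg. FPKM here divides by all annotated exon bases, which are 18089 for Meg3 and 18234 for Rian, and 40 to 138 fragments stood behind each Meg3 value. For Mirg there were only 4 to 28 fragments per sample, and which differences could be detected at this depth was not tested.

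Dlk1, a paternally expressed membrane protein related to Notch ligands, opens the same domain (chr12:109452823-109463336, plus strand). Its FPKM was 0.264, 0.0829, 0.104 and 0.189 at 0 d, 0.0346, 0.0211, 0.0869 and 0.0629 at 3 d, and 0.0948, 0.0526, 0.0641 and 0.0101 at 28 d. The groups overlapped at both. These values rest on 23 fragments or fewer, and the third 7 d sample held 0, which allows up to 3 fragments (counting error only). The adjusted p was 0.0298 at 3 d, 0.0291 at 21 d and 0.034 at 28 d, but the differences of -0.14, -0.14 and -0.13 were far under 1.5-fold on this scale. With a pseudocount of 0.1 they were -0.75, -0.78 and -0.72, and Dlk1 was called at these 3 time points.

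Dio3, the imprinted gene at the other end of this domain, which encodes an enzyme that inactivates thyroid hormone, behaved unlike the 4 members there. It had 0.362 ± 0.367 FPKM (SD, n = 4) at 0 d and 4.19 ± 2.35 at 3 d, with a range of 1.29 to 6.48, and 1.38 ± 0.455 at 28 d. Its difference was 1.82 at 3 d (adjusted p = 1.3e-07) and it was called higher at each later time point, also after median-ratio scaling. Begain, a neighbour on the side of Dlk1, averaged 0.0593 FPKM at 0 d and 0.520 at 14 d, a difference of 0.52 that was under 1.5-fold on this scale.

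Among 40 other imprinted genes listed, 38 were in the table and 34 were tested. At 3 d, 6 of the 34 were called higher and 3 lower, beside 13.2% and 6.03% of all genes tested. At 28 d, 7 were called higher and 3 lower, beside 14.2% and 4.1% of all genes. Their median difference at 28 d was 0.0871, beside 0.139 over all genes tested and 0.236 over the members. After median-ratio scaling the counts were 3 higher and 4 lower at 3 d, and 6 higher and 3 lower at 28 d. Igf2r, a receptor that clears Igf2 and whose silencing RNA is Airn, rose from 11.4 ± 0.711 FPKM to 27.2 ± 3.05 at 3 d and 33.6 ± 4.23 at 28 d. Snrpn, a splicing protein gene, fell from 3.51 ± 0.386 FPKM to 1.32 ± 0.269 at 3 d and 1.31 ± 0.237 at 28 d. Asb4 was called lower from 5 d on, from 4.94 ± 0.248 FPKM at 0 d to 1.62 ± 0.199 at 28 d. Igf2r, Snrpn and Asb4 kept these calls after median-ratio scaling.

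Of 11 domain neighbours not known as imprinted in muscle, 1 was called higher and 1 lower at 3 d, and 1 higher and 2 lower at 28 d, beside 13.2% and 6.03% of all genes at 3 d and 14.2% and 4.1% at 28 d. After median-ratio scaling the counts were 1 higher and 2 lower at 3 d, and 0 higher and 2 lower at 28 d. Ltv1, a ribosome assembly gene near Plagl1, was called higher at all 7 time points, but after median-ratio scaling only at 3, 5 and 7 d. Of 12 growth factor and cell cycle partners, 5 were called higher at 3 d and 3 at 28 d, beside the same 13.2% and 14.2% of all genes. None was called lower at these time points, where 6.03% and 4.1% of all genes were. After median-ratio scaling the counts were 4 and 2. Cdk4, a kinase that Cdkn1c is known to restrain, was called higher at 3, 5 and 7 d, by 0.83, 0.72 and 0.65, of which the 3 d call held after median-ratio scaling (0.62). Igf1 was called higher at 3, 5, 7 and 14 d, and at none of them after that scaling.

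Ordered by mean FPKM at 0 d, a level per annotated exon length, the members ran H19, Cdkn1c, Grb10, Peg3, Mest, Plagl1, Meg3, Rian, Dlk1 and Mirg. The samples of Cdkn1c (5.46 ± 0.412, SD, n = 4) and Grb10 (5.01 ± 0.460) overlapped. Meg3 (0.298 ± 0.114) and Rian (0.281 ± 0.0874) lay within each other's spread, and Dlk1 (0.160 ± 0.0831) overlapped with Rian and Mirg (0.0774 ± 0.0392). At 28 d the order was H19, Peg3, Grb10, Cdkn1c, Mest, Plagl1, Rian, Meg3, Mirg and Dlk1. Peg3 (16.0 ± 3.30) and Grb10 (15.3 ± 2.45) did not differ beyond their spread there, and both lay above Cdkn1c (6.04 ± 0.656).

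Genes with the most similar course were ranked by Pearson's r over the 32 samples among 11943 genes, as a description, since time points and depth are shared by all of them. Closest to H19 were Dars (r = 0.98), Ttc9 (0.976) and Chrna1 (0.975), the last encoding a subunit of the muscle acetylcholine receptor. For Peg3 they were Cdk18 (0.936), Uimc1 (0.925) and Nvl (0.924), and for Grb10 Sh3bp4 (0.917), Hip1 (0.91) and Fam171a2 (0.908). Plagl1 was closest to Iqgap1 (0.92), Cnot6 (0.907) and Myof (0.906). Mest had lower values, with Tcf4 (0.862), Wls (0.859) and Mfap4 (0.852), and so did Cdkn1c with BC029722 (0.8), Polr3gl (0.775) and Chodl (0.767). Rian reached 0.807 with Col5a1, while Meg3, Mirg and Dlk1 had no gene above 0.616.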

How the data were processed

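RNA was sequenced from 32 GAS muscles. The authors deposited 1 FPKM value per gene and sample. The submitters' processing notes name CASAVA, HISAT2 2.1.0 and DESeq2 and the build GRCm38, and the annotation and counter are not given in the sources used here. The labels' extraction text speaks of retina and a TruSeq kit, whereas the study describes muscle and another kit. Identifiers of 33356 genes matched GENCODE mouse release 21 (41 did not), and its merged exon lengths turned 99.3% to 99.4% of the values under 200 fragments into whole fragments within 0.02. Intervals and floors cover counting error only.

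From the deposited FPKM, log2(FPKM + 1) was tested with limma 3.58.1 (R 4.3.3; lmFit, eBayes with a variance trend, 1 mean per time point) over genes with at least 0.1 FPKM in at least 4 samples, with Benjamini-Hochberg adjustment over all of them. Single members were also compared by two-sided exact permutation, which cannot give a p below 0.0286 with 4 samples on each side or below 0.00055 with 12 and 4. The fit was tested on simulated data for 28 d against 0 d, where 177 of 200 changed genes were recovered with 1 false call among 21324 genes. The changed genes were drawn from well-covered genes only, with the same size of change and the same spread for all and no shift of the other genes. This recovery therefore does not carry over to the low members Meg3, Rian, Mirg and Dlk1, nor to the shift seen in these data. Python 3.11.15 did the rest, with scipy 1.17.1, numpy 2.4.6, matplotlib 3.10.9 and pandas 2.3.3.

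Samples of a time point are numbered in the order of the columns. The members, gene lists and marker lists were chosen with earlier results of these data known. Every member is named. Other genes were taken mainly from those in the lists called in the most comparisons (up to 8 per list) or lying next to H19, Meg3 or Cdkn1c. Not all such genes were described. Left out were, among others, Tnnt3, a domain neighbour called lower at 14, 21 and 28 d, and Cdk2, a partner called higher at 7 and 28 d. For likeness, the 3 genes with the highest r among those with a mean FPKM of at least 1 were named. Alternatives covered the pseudocount, the filter, median-ratio scaling, rescaling to TPM, the variance trend, limma-voom on recovered fragments, the fold threshold and leaving out each sample. Protein assays, knockout mice and cultured myotubes were not analysed here.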

Additional observations from a re-analysis of the deposited data

Results flagged for a closer look

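Of 80 groups of 4 samples looked at (10 members at 8 time points), 3 held a sample farther from the others than the critical value of Dixon's test allows, where chance gives about 1 in 20 groups, or 4. Mest reached 7.42 FPKM in the fourth 7 d sample, against 1.54 to 2.09 in the others, a gap of 0.907 of the range. Mest was also high in the third 5 d sample, at 2.97 FPKM against 1.79 to 1.82 (0.974 of the range). Mirg was at 0.137 FPKM in the third 14 d sample, against 0.0495 to 0.0632 (0.844 of the range), a value that rests on 17 fragments.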

How the results depend on the processing

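Over the 140 member differences, 10 members in 14 comparisons, none that was called changed sign under any alternative, and 112 of 5544 recomputed differences changed sign while called in neither fit. Leaving out 1 sample lost 7 calls and added 7 among 4480 values, and the other alternatives lost 7 and added 35 among 1064. At 1 d the count of members called was 2 in place of 1 when rescaled to TPM and with no fold threshold, H19 being added, and it ranged from 1 to 2 when 1 sample was left out (2 without the first 0 d sample or either of the last 1 d samples). At 14 d it was 5 in place of 3 when rescaled to TPM, and at 21 d 5 in place of 3 with limma-voom on recovered fragments. Among other calls TPM added H19 at 1 d (0.68), Grb10 at 7 d (0.63) and Mest at 14 d (0.72), and it took Cdkn1c at 3 d to -0.58. The pseudocount of 0.1 and limma-voom added calls for the low genes Plagl1 and Dlk1. Median-ratio scaling added a fall of Grb10 from 3 to 5 d (-0.59), which also appeared without the first 3 d sample (-0.65). The cause was not tested. Depth limits Mirg and Dlk1 most, with 28 fragments or fewer in each sample. No paired analysis was possible because the columns of the table carry letters or numbers that are tied to no sample title, so the replicate numbers of the labels could not be attached to them.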
